A study of Mus musculus with 8 samples.

Results

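The casein genes are Csn1s1, Csn2, Csn1s2a, Csn1s2b and Csn3, which encode the main proteins of mouse milk. They were taken by gene symbol from the platform annotation, and each of the 5 had 1 probe set among the 19505 genes measured. Expression was read on 8 Affymetrix arrays of luminal mammary cells, the inner epithelial layer whose alveolar cells make milk, sorted by flow cytometry from enzyme-digested glands of mice on day 15 of pregnancy. The 4 samples labelled a3a6KO, from glands knocked out for the alpha 3 and alpha 6 integrin chains (genes Itga3 and Itga6), were set against 4 samples labelled control. The a3a6KO titles start with DKO yet also contain Ctrl, whereas their subtype label and source name give only the knockout. The sources used here do not give the Cre line, the deleted parts, the strain or age of the mice, or whether cells of several mice were pooled. Where nothing else is said, values are log2 expression on the RMA scale of the arrays, and differences are a3a6KO minus control.

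Caseins are secreted phosphoproteins that gather with calcium phosphate into micelles, the particles that carry most of the protein and calcium of milk. The alpha-s1 casein (Csn1s1), the beta casein (Csn2) and the alpha-s2 caseins (Csn1s2a and Csn1s2b) bind calcium through clusters of phosphorylated serines, while kappa casein (Csn3) coats the micelle and keeps it from clotting. Their genes lie in 1 cluster and are switched on during pregnancy by prolactin, whose receptor works through the kinase Jak2 and the transcription factors Stat5a and Stat5b, together with glucocorticoids and factors such as Elf5 and Cebpb. In cultured mammary cells, contact with laminin, the basement membrane protein bound by integrins that contain alpha 3 or alpha 6, is known to support casein expression under prolactin.

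The promoters are shown because the bright casein genes varied together across the samples and because Stat5 binds such sites. RefSeq sequences (GRCm38.p6, 250 bases before to 50 after the listed gene start) were matched for 3 of the 5 genes. Capitals mark matches to TTCNNNGAA, the palindrome recognised by Stat5, searched on both strands (it reads the same on each). Csn1s1 is at chr5:87665958-87666257 (+ strand), Csn2 at chr5:87699376-87699675 (- strand) and Csn1s2a at chr5:87774200-87774499 (+ strand).
Csn1s1: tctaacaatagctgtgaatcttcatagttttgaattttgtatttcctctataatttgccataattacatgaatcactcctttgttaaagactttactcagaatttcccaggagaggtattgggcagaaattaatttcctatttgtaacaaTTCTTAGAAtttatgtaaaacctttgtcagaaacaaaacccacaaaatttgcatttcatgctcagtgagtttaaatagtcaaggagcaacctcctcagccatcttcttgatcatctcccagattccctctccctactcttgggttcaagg
Csn2: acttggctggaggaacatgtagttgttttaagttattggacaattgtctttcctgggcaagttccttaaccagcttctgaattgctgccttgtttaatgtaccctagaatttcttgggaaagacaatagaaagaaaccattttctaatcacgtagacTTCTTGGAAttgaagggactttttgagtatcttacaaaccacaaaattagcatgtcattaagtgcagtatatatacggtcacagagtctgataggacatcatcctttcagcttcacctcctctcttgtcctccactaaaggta
Csn1s2a: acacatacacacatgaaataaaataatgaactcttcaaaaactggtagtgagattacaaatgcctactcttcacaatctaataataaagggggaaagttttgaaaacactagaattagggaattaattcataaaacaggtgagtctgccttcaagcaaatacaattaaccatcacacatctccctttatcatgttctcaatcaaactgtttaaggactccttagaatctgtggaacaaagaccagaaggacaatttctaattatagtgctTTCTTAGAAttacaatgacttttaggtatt
Each window held 1 match. It began 100 bases before the listed start in Csn1s1 and 93 bases before it in Csn2, but 20 bases after it in Csn1s2a. The core reads TTCTTAGAA in Csn1s1 and Csn1s2a and TTCTTGGAA in Csn2. Of 32851 promoters of this length, 8.30% held TTCNNNGAA and 0.417% held TTCTTGGAA on either strand, the second being a special case of the first. Csn1s1 also had ATTTGCAT, the octamer bound by Oct factors, 54 bases before the start (1.74% of promoters), and Csn1s2a had TGTTCT, the hexamer of glucocorticoid receptor sites, 59 bases before it (19.0% of promoters). TATAAA was found in none of the 3 windows and in 13.6% of promoters. Among the other secreted milk protein genes with a promoter in the table, 2 of 10 (Glycam1 and Pigr) held TTCNNNGAA, as did 0 of 7 casein gene regulators and 2 of 7 genes of Stat5 feedback (Cish and Socs3). A match is a run of letters and not shown to be a bound site.

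Of the deleted genes, Itga6 stood at 5.95, 3.65, 8.21 and 7.85 in a3a6KO 1 to 4, against 8.83, 8.73, 9.14 and 8.80 in control 1 to 4. Itga3 stood at 5.11, 4.34, 5.55 and 5.60 in a3a6KO and at 6.72, 6.30, 5.37 and 7.27 in control. All a3a6KO values of Itga6 thus lay under those of control, but a3a6KO 3 and 4 stood nearer to them than a3a6KO 1 and 2, and Itga3 overlapped between the groups. Whether the probes cover what was deleted is unknown, so these levels do not check the knockout fully. The luminal keratin gene Krt8 was bright in all samples (10.30 to 10.63 in a3a6KO and 10.19 to 10.62 in control). No 2 arrays were identical, and 2 arrays of a group were about as alike over all genes (r of 0.93 to 0.945) as an a3a6KO and a control array (0.924 to 0.946). A value counted as above background where it exceeded 95% of the 5222 intron control sets on its own array, a bound of 6.38 to 6.9. By this rule Itga6 exceeded background on 2 a3a6KO and 4 control arrays. Itga3 did so on 0 a3a6KO arrays and 1 control array, so its overlap between the groups says little.

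On every array 4 of the casein genes were among the brightest, and 1, Csn1s2b, was dim. Ranked among all genes of an array, with 1 as the brightest, Csn1s2a was at 1 or 2 (1 on 7 arrays), Csn2 at 3 to 7, Csn1s1 at 10 to 33 and Csn3 at 31 to 63. A rank here describes the signal of a probe set, since probe sets bind with unequal strength, and does not give the order of transcript amounts. Among all 28846 probe sets, controls included, the places were 6 to 8, 11 to 19, 28 to 75 and 62 to 125. The distance of the log2 value from the highest value of its array was 0.29 to 0.46 for Csn1s2a, 0.58 to 0.98 for Csn2, 1.15 to 1.59 for Csn1s1 and 1.5 to 2.14 for Csn3. Of the 4, Csn1s2a thus lay closest to the highest value of its array and Csn3 farthest from it. Csn1s2b ranked between 5857 and 8774, exceeded background on 0 of 8 arrays, and lay above 75.0% to 88.0% of the intron sets. In the control cells alone, the mean levels were 12.88 ± 0.0436 for Csn1s2a, 12.54 ± 0.111 for Csn2, 12.02 ± 0.104 for Csn1s1, 11.59 ± 0.165 for Csn3 and 4.93 ± 0.351 for Csn1s2b (log2, SD, n = 4).

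**Figure D1:**
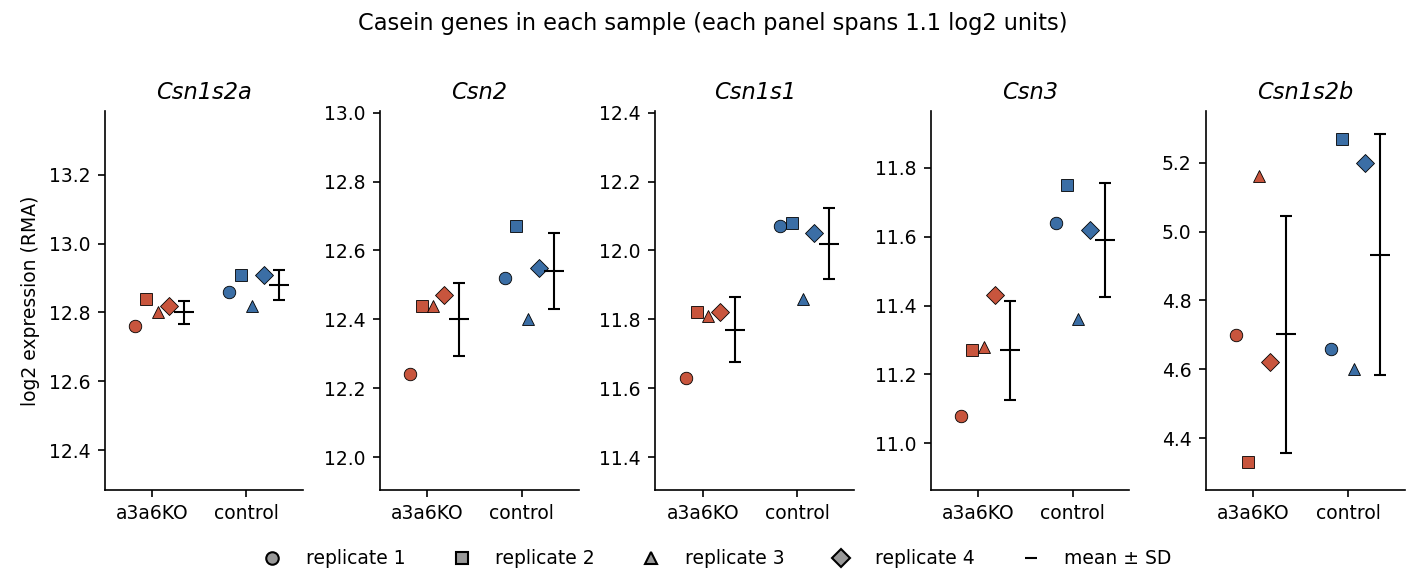
Log2 expression of the 5 casein genes in each a3a6KO sample (red, left) and control sample (blue, right), with the group mean ± SD (n = 4) in black and all panels drawn to the same span. Csn1s1 is the gene whose groups do not overlap (11.63 to 11.82 in a3a6KO and 11.86 to 12.08 in control), and a3a6KO 1 and control 3 sit lowest in their groups for Csn2, Csn1s1 and Csn3.

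The 4 bright casein genes had lower means in a3a6KO than in control, by small amounts, as had the signal of Csn1s2b under background, and none passed the test. Control levels were 1.25-fold those of a3a6KO for Csn3, 1.19-fold for Csn1s1, 1.1-fold for Csn2 and 1.05-fold for Csn1s2a. The median difference was -0.191 over these 4 genes and -0.23, the value of Csn1s2b itself, over all 5 (log2). Over all 19505 genes the median difference was -0.0025, and 50.1% had a lower mean in a3a6KO. In limma with Benjamini-Hochberg adjustment over all genes, 0 of the 5 casein genes passed an adjusted p of 0.05, as did 0 of all genes (0.0%). At an unadjusted p under 0.05, limma gave 0 of the 5 casein genes and 1000 of all genes (5.13%). This count depends on the fit. With a limma variance prior that follows the expression level, Csn1s1 and Csn3 had such a p, as had 998 of the 19505 genes. All a3a6KO values lay below all control values in 1 of the 5, Csn1s1, and in 1.56% of all genes. In bulk RNA, fewer casein-making cells and less casein RNA per cell cannot be told apart.

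Csn3, the kappa casein of the micelle surface, showed the widest of these differences. It stood at 11.08, 11.27, 11.28 and 11.43 in a3a6KO, against 11.64, 11.75, 11.36 and 11.62 in control. Control 3 lay below a3a6KO 4, and the other 3 controls lay above every a3a6KO sample. The means were 11.27 ± 0.143 in a3a6KO and 11.59 ± 0.165 in control (SD, n = 4), a difference of -0.33 (SE 0.16, 95% interval -0.689 to 0.0336). Limma gave an adjusted p of 0.944, and an exact permutation test that ran through all 70 ways to divide the samples gave p = 0.0571 (two-sided, smallest possible 0.0286).

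Csn1s1, the alpha-s1 casein, read 11.63, 11.82, 11.81 and 11.82 in a3a6KO, against 12.07, 12.08, 11.86 and 12.05 in control. Every a3a6KO value was under every control value, though control 3 lay close above the 3 upper a3a6KO samples. The difference was -0.245 (SE 0.145, interval -0.572 to 0.0824, limma adjusted p = 0.946), and the exact permutation test gave 0.0286, its lowest attainable p. The 5 exact tests were not adjusted among themselves.

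Csn2, the beta casein, read 12.24, 12.44, 12.44 and 12.47 in a3a6KO, against 12.52, 12.67, 12.40 and 12.55 in control. Control 3 was lower than 3 of the 4 a3a6KO samples. The difference of -0.138 (SE 0.148, interval -0.47 to 0.195) gave a limma adjusted p of 0.952 and an exact permutation p of 0.114. It was -0.085 without a3a6KO 1, -0.246 with the arrays centred on luminal genes and -0.0865 with a basal keratin score as a covariate.

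Csn1s2a, the brighter of both alpha-s2 caseins, read 12.76, 12.84, 12.80 and 12.82 in a3a6KO, against 12.86, 12.91, 12.82 and 12.91 in control. All 8 values lay within 0.15, where the deposited values move in steps of 0.01, and a3a6KO 2 and 4 reached the level of control 3. The difference was -0.07 (SE 0.136, interval -0.376 to 0.236, limma adjusted p = 0.978, exact permutation p = 0.0857). It was -0.179 with the arrays centred on luminal genes and -0.0425 with the arrays centred on their medians.

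Csn1s2b, its dim paralog, read 4.70, 4.33, 5.16 and 4.62 in a3a6KO, against 4.66, 5.27, 4.60 and 5.20 in control. The groups overlapped almost wholly, with 1 high sample in a3a6KO and a pair of high samples in control. The difference was -0.23 (SE 0.239, interval -0.768 to 0.308, limma adjusted p = 0.95, exact permutation p = 0.371), with every value under background. It was -0.106 without a3a6KO 2, -0.118 without control 2, -0.141 without control 4, -0.383 without a3a6KO 3 and 0.0213, with the sign turned, when a basal keratin score was a covariate.

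The 4 bright casein genes differed between the groups by less the brighter they were. From the brightest down, the difference was -0.07 in Csn1s2a (mean level 12.84), -0.138 in Csn2 (12.47), -0.245 in Csn1s1 (11.89) and -0.328 in Csn3 (11.43). The SD over all 8 arrays followed the same order, at 0.0521, 0.124, 0.16 and 0.226. Ratios within an array remove shifts shared by the whole array, and 10 pairs of casein genes were compared in this way. The log2 ratio of Csn3 to Csn1s2a was -1.68, -1.57, -1.52 and -1.39 in a3a6KO, against -1.22, -1.16, -1.46 and -1.29 in control, a difference of -0.258 (exact permutation p = 0.0571). The ratio of Csn1s1 to Csn1s2a was lower in every a3a6KO sample (-1.13 to -0.99) than in every control sample (-0.96 to -0.79), by -0.175 (exact permutation p = 0.0286), and so was that of Csn1s1 to Csn2, by -0.107 (exact permutation p = 0.0286). Adjusted over the 10 pairs, the smallest exact permutation p was 0.143, so 0 pairs passed. The exact p cannot fall under 0.0286 here, so no pair could pass unless most of the 10 pairs reached that bound. The differences of the 5 genes were thus shown neither to be unequal nor to be equal.

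**Figure D2:**
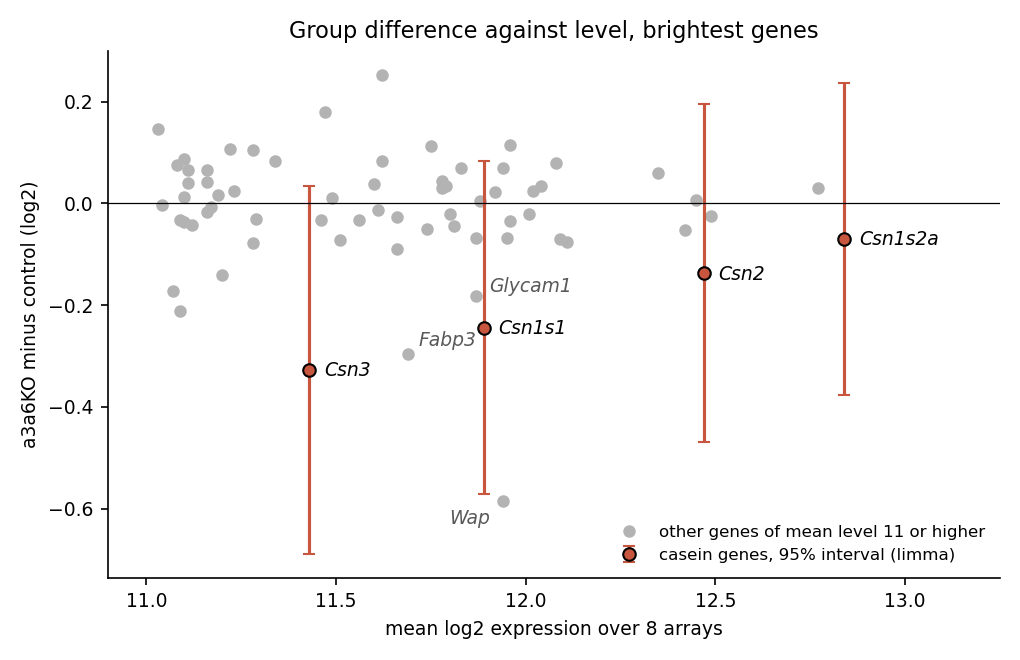
Difference of a3a6KO minus control (log2, vertical axis) against the mean log2 level over 8 arrays for the 68 genes with a mean of 11 or higher, with the 95% limma interval on the 4 casein genes (red). The casein points run from -0.328 for Csn3 to -0.07 for Csn1s2a and every interval drawn includes 0, while Wap lies lower, at -0.585. With a variance prior that follows the level, the intervals of Csn1s1 and Csn3 do not include 0.

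Other bright genes give the range in which these values sit. Among the 68 genes with a mean level of 11 or higher, the median difference was -0.005 and 51.5% had a lower mean in a3a6KO. Ordered from the most negative difference, Wap came at place 1, Csn3 at 2, Fabp3, a fatty acid carrier of milk-making cells, at 3 (-0.297), Csn1s1 at 4, Glycam1, a milk mucin, at 6 (-0.182), Csn2 at 9 and Csn1s2a at 15. This ordering was chosen after the values were seen and has no test. Wap, the whey acidic protein gene, lay as high on the arrays as Csn1s1 (mean levels 11.94 and 11.89) yet ran from 11.17 to 11.99 in a3a6KO and from 11.86 to 12.76 in control. Of the genes nearest in level, 0 of 10 around Csn3, 1 of 10 around Csn1s1 (Wap), 0 of 7 around Csn2 and 0 of 5 below Csn1s2a had a larger difference in size than the casein gene itself. Many of these neighbours were ribosomal protein genes and few were milk genes.

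The spread between replicates also narrowed toward the top of the range. Over all genes, the median within-group SD was 0.439 at levels of 6 to 8, 0.241 at 9 to 10, 0.0783 at 11 to 12 and 0.0594 above 12, where 13 genes lay. The within-group SD was 0.155 for Csn3, 0.0989 for Csn1s1 and 0.108 for Csn2, against medians of 0.0826, 0.0419 and 0.0537 in their neighbours in level, and 0.0392 for Csn1s2a against 0.0537. Csn3, Csn1s1 and Csn2 thus varied more between replicates than the typical gene of their brightness, often a ribosomal protein gene, and Csn1s2a less. This was not particular to caseins, as the SD of Wap was 0.365 in a3a6KO and 0.409 in control. For other bright milk genes it was 0.0785 and 0.117 (Glycam1), 0.0311 and 0.0936 (Wfdc18) and 0.164 and 0.0359 (Trf). Limma draws the variance of each gene toward that of all genes, and the SE of 0.136 to 0.16 of the bright caseins reflects this. With a variance prior that follows the level, the SE was 0.0647 for Csn1s1 and 0.0946 for Csn3 (unadjusted limma p of 0.00327 and 0.00568), while the adjusted p stayed at 0.935 for each.

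**Figure D3:**
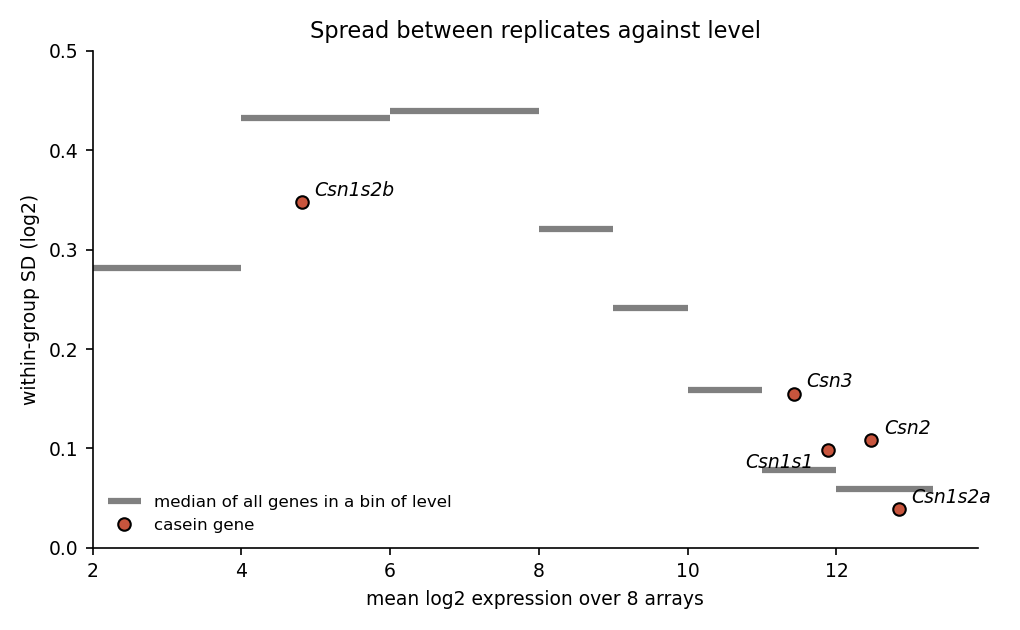
Within-group SD (log2, pooled over both groups) against the mean log2 level, with grey bars for the median of all genes in each bin of level and red points for the casein genes. The bars fall to 0.0594 above a level of 12. Csn3, Csn1s1 and Csn2 lie above the bar of their bin and Csn1s2a below it.

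The 4 bright casein genes went up and down together from sample to sample. Over the 8 samples, Pearson's r was 0.97 for Csn3 and Csn1s1 (Spearman's rho 0.922, exact permutation p = 0.000694 for r and 0.00248 for rho), and the 6 pairs of bright genes had r from 0.907 to 0.97 and rho from 0.807 to 0.922. Of the 10 pairs tested, these 6 passed after adjustment (adjusted p of 0.00331 for each r and of 0.0141 to 0.0344 for rho, from exact permutations of the pairings). They did not rest on the difference between the groups. On deviations from the group means, r was 0.81 to 0.937 in these pairs, and without the 2 samples farthest from the median it was 0.777 to 0.959. The 4 pairs with Csn1s2b had r from 0.458 to 0.533 and did not pass (smallest adjusted exact permutation p = 0.254). Per unit of change in Csn3, the fitted change was 0.685 in Csn1s1, 0.515 in Csn2 and 0.21 in Csn1s2a. The genes of 1 sample share its RNA, its amplification and its array, so these relations are not between independent measurements.

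**Figure D4:**
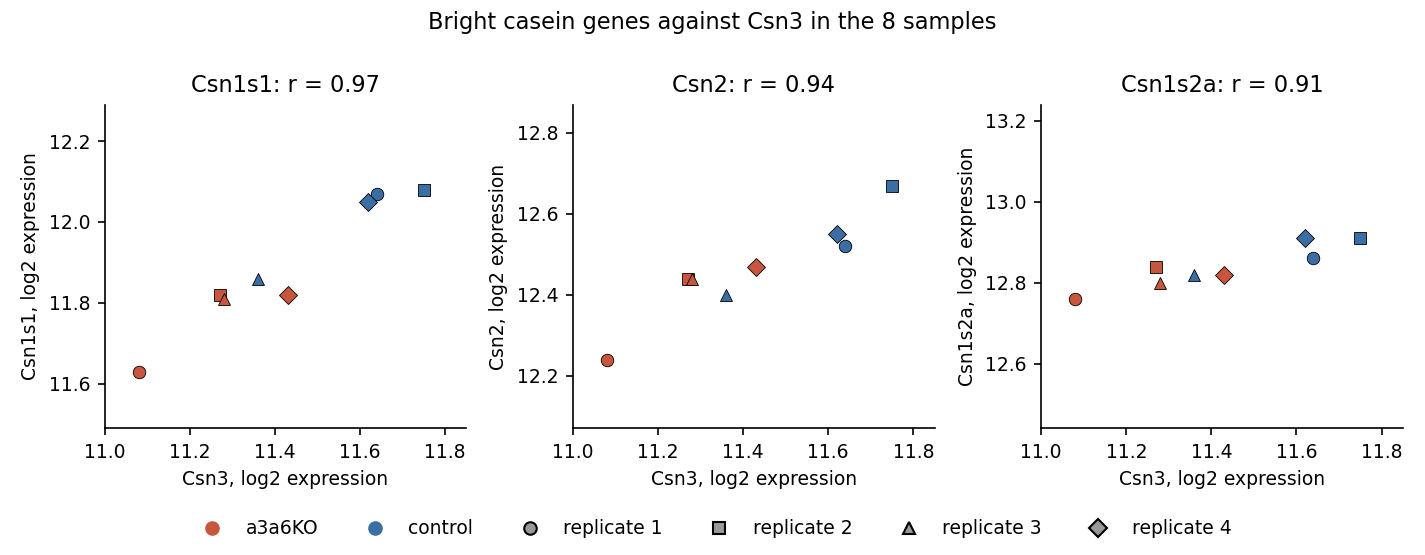
Log2 expression of Csn1s1, Csn2 and Csn1s2a (vertical axes, equal spans) against Csn3 (horizontal axis) in the a3a6KO (red) and control (blue) samples. The 3 genes line up with Csn3 (r of 0.97, 0.936 and 0.913), and the slope is shallowest for Csn1s2a. Control 3 lies among the a3a6KO samples for Csn3, Csn2 and Csn1s2a, and just above them for Csn1s1.

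The score of the 4 bright genes, their mean deviation from the mean over arrays, showed which samples carried this. It was -0.229, -0.0644, -0.0744 and -0.0219 in a3a6KO, against 0.116, 0.196, -0.0469 and 0.126 in control. A3a6KO 1 was the lowest sample, and control 3 lay between the a3a6KO samples and apart from the other controls. The other milk genes did not share 1 order of the controls. Wfdc18, a whey acidic protein family member, was lowest in control 3, at 11.58, 11.62, 11.41 and 11.58 in control 1 to 4, and so was Cel, the bile salt-dependent lipase of milk, at 6.43, 6.53, 5.72 and 7.12. Cel exceeded background on only 1 of the 8 arrays. Wap in control was 11.86, 11.96, 12.33 and 12.76, and Lalba, the alpha-lactalbumin subunit of lactose synthase, was 9.26, 9.05, 9.75 and 10.05, so that in both genes only control 4 was higher than control 3. A3a6KO 1 was the lowest of all samples for Wap (11.17) and Lalba (8.09) as well as for the bright casein genes.

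By the likeness of their pattern (Pearson's r over 8 arrays with the mean deviation of all 5 casein genes, among 1591 genes above background on every array), the nearest genes were Wfdc18 (0.887), Sbsn, known from the epidermis (0.861), Cox6b1, a subunit of cytochrome oxidase (0.861), Birc3, an inhibitor of apoptosis (0.855), and Prrc2c (0.838). Wfdc18 followed the bright casein genes also within groups (r = 0.884 on deviations from the group means), whereas Birc3 did so less (0.521) and differed between the groups by -0.76 (SE 0.221, limma adjusted p = 0.944). With the dim Csn1s2b left out of the score, a choice made after the data were seen, Ndufa1 (0.916), Uqcrq (0.893) and Wfdc18 (0.885) came nearest, Ndufa1 and Uqcrq being subunits of the respiratory chain. These correlations describe 8 arrays, were picked as the highest of many, and carry no test.

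The genes that act on casein transcription gave no single direction. Of 12 listed regulators 9 were measured, 5 of them higher and 4 lower in a3a6KO with a median of 0.06, and 0 passed in limma, also at an unadjusted p under 0.05. Elf5, the alveolar transcription factor, stood at 8.82, 9.60, 9.03 and 9.53 in a3a6KO, against 9.54, 9.69, 9.62 and 9.32 in control, a difference of -0.30 (SE 0.213, limma adjusted p = 0.95). It was lowest in a3a6KO 1, the sample lowest in the bright caseins. Jak2, the kinase of the prolactin receptor, differed by 0.29, Stat5a by -0.31 and Stat5b by 0.19, with SEs of 0.213, 0.33 and 0.22. Jak2 exceeded background on 6 arrays, but Stat5a did so on only 3 and Stat5b on 2. The glucocorticoid receptor gene Nr3c1 differed by 0.23 and Cebpb by -0.195, both under background on every array. Nfib, a nuclear factor bound at milk genes, differed by 0.06 and Yy1, a repressor of the beta casein promoter, by 0.07. Ybx1, under background on every array, differed by -0.20. Prlr, Pou2f1 and Runx2 were not used here, since no probe set carried their symbols.

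In Stat5 feedback, 6 of 9 genes were higher and 3 lower in a3a6KO (median 0.12), 6 of the 9 exceeded background on 0 arrays, and 0 passed in limma. Cish, an inhibitor that Stat5 itself induces, stood at 6.48, 7, 5.87 and 7.55 in a3a6KO, against 7.91, 8.17, 8.10 and 7.40 in control. Control 4 fell below a3a6KO 4, and the other controls lay above every a3a6KO sample. The difference was -1.17 (SE 0.348, limma adjusted p = 0.944, exact permutation p = 0.0571). Socs2, another target of Stat5, differed by 0.19 (SE 0.618) under background, and the phosphatase genes Ptpn11 and Ptpn1 by 0.345 (SE 0.253) and 0.738 (SE 0.7). Ptpn11 exceeded background on 0 arrays and Ptpn1 on 2. Of the regulator and feedback genes, Cish had the smallest unadjusted limma p (0.00794).

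Of 11 other genes for secreted milk proteins that were measured, 10 had lower means in a3a6KO, with a median of -0.585, and 0 passed in limma over all genes, while 5 had an unadjusted p under 0.05 (over all genes, 50.1% were lower and 5.13% had such a p in either direction). Wap differed by -0.585 (SE 0.258) and Lalba by -0.74 (SE 0.306). Pigr, which carries antibodies into milk, differed by -0.77 (SE 0.219), the iron-binding Ltf by -1.02 (SE 0.39), Lao1 by -0.785 (SE 0.328) and Lcn2, a carrier of iron-binding siderophores, by 0.215 (SE 0.193). Ltf exceeded background on only 2 of the 8 arrays. The median was smaller in size for the caseins, at -0.191 over the 4 bright genes and -0.23 over all 5. Most genes of the secreted list were dimmer than the bright caseins, so these medians do not compare genes of like level. Those with a mean level of 11 or higher were Wap, Glycam1 (-0.182), Wfdc18 (-0.0725) and Trf. Trf, the transferrin gene, was also bright, at 11.08 in a3a6KO and 11.12 in control, and differed by -0.0375 (SE 0.15).

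The machinery that phosphorylates, folds and glycosylates caseins and supplies calcium to the Golgi was higher in 11 and lower in 7 of 18 measured members (median 0.0312), with 0 passing in limma. Fam20c, the Golgi kinase that phosphorylates caseins, was at 6.13 ± 0.315 in a3a6KO and 6.21 ± 0.534 in control (SD, n = 4), a difference of -0.0775, and Fam20a, its activating partner, differed by 0.195. Fam20c exceeded background on only 1 of the 8 arrays. Slc34a2, a phosphate transporter, read 6.19, 4.2, 5.7 and 6.37 in a3a6KO, all lower than the 8.08, 6.40, 6.78 and 7.24 of control (-1.51, SE 0.509, limma adjusted p = 0.944), and exceeded background on 0 a3a6KO and 3 control arrays. Atp2c2, a Golgi calcium pump, differed by -0.40 (SE 0.193), Galnt1, which starts O-linked glycans, by -0.425 (SE 0.269) and the plasma membrane calcium pump Atp2b2 by -0.385 (SE 0.262), all under background.

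**Figure D5:**
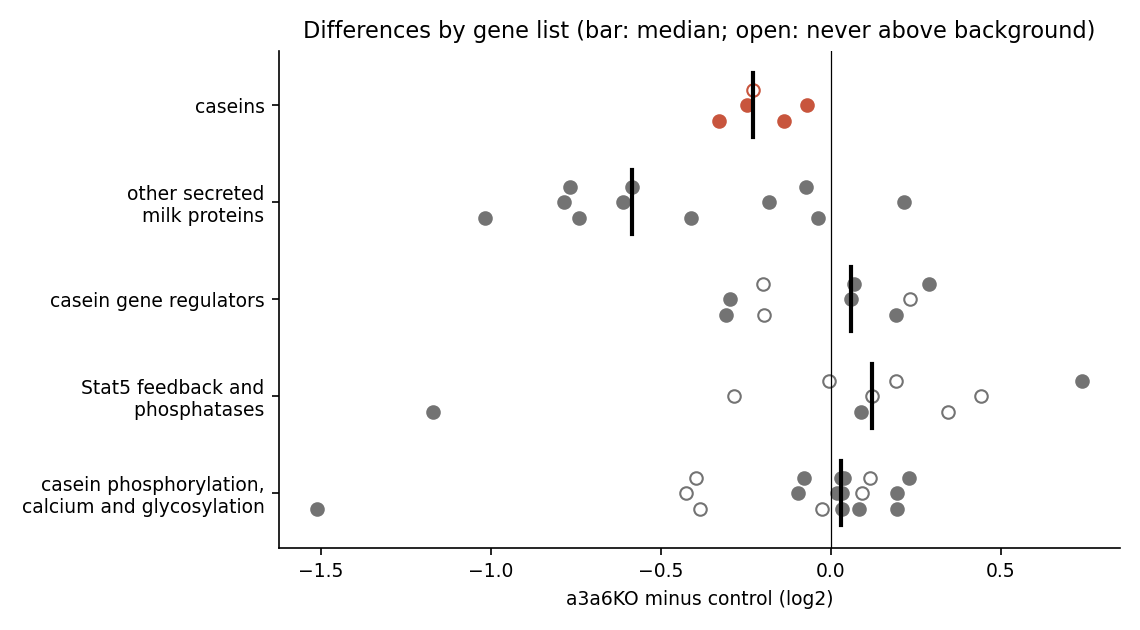
Differences of a3a6KO minus control (log2, horizontal axis) for the measured genes of 5 lists, 1 point per gene, with a bar at the median and open points for genes above background on 0 arrays. The medians are -0.23 for the 5 caseins (-0.191 for the 4 bright ones) and -0.585 for other secreted milk proteins, and between 0.0312 and 0.12 for the other lists.

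The neighbours of the casein genes on their chromosome stayed dim. In the RefSeq gene order, the protein-coding genes run Sult1d1, Sult1e1, Csn1s1, Csn2, Csn1s2a, Csn1s2b, Prr27, Odam, BC037156, Csn3, Cabs1 and Smr3a. BC037156 was not measured. Odam, a gene of the same calcium-binding family that serves in enamel, was at 4.69 ± 0.439 in a3a6KO and 4.34 ± 0.0486 in control (SD, n = 4), a difference of 0.34 (SE 0.223, limma adjusted p = 0.948). Prr27 was at 3.21 and 3.35, Cabs1 at 2.37 and 2.35, Smr3a at 2.27 and 2.38, Sult1d1 at 2.54 and 2.48, and Sult1e1 at 2.12 and 2.03 in a3a6KO and control. All 6 were under background on every array, as was Csn1s2b.

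Among the lists of cell markers, 1 had all its members on the same side. The basal and myoepithelial list was lower in a3a6KO in 14 of 14 members (median -0.59), where 50.1% of all genes were lower. In limma 0 of them passed and 4 had an unadjusted p under 0.05, against 5.13% of all genes. Its mean log2 level was 5.25 to 7.02 in a3a6KO and 5.87 to 7.6 in control, and its score was -0.931, -0.947, 0.824 and -0.716 in a3a6KO, against -0.263, 0.958, -0.326 and 1.40 in control. Krt14 exceeded background on all 8 arrays and Krt5 on 4, while Krt17, Oxtr and Cdh3 did so on 0. The luminal list was higher in 9 and lower in 5 of 14 members (median 0.0862). In limma 0 of these passed, and 1, Muc1 (-0.745, SE 0.256), was lower at an unadjusted p under 0.05. The alveolar luminal list, which includes Csn2, Wap and Lalba, was lower in 7 and higher in 2 of 9 members (median -0.205). In limma 0 of its members passed, and at an unadjusted p under 0.05 2 were lower and 1 was higher. Markers of hormone-sensing luminal cells were higher in 3 and lower in 3 of 6 measured members. Leukocyte and adipocyte markers exceeded background on 0 arrays in 9 of 10 and 7 of 7 genes, fibroblast markers in 7 of 9 and endothelial markers in 4 of 9. The part of these cells in the casein differences was not tested. In the fit with the basal keratin score, Csn3 differed by -0.29, Csn1s1 by -0.253, Csn2 by -0.0865 and Csn1s2a by -0.0649. The median of all 5 there was the value of Csn2, since Csn1s2b, under background, turned to 0.0213.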

How the data were processed

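Luminal cells were sorted after enzymatic digestion, RNA came from Qiagen micro-columns, and 500 pg were amplified and biotin-labelled with NuGEN kits, per the labels' protocols. The deposited log2 values, 1 per probe set and array, were made by the authors with Affymetrix Expression Console and RMA (background correction, quantile normalization, probe summary), per the submitters' processing notes, with no versions stated. Quantile normalization removes shifts shared by most genes. The values were used as deposited, with no pseudocount. Probe sets were named through the platform annotation: of 28846, 19572 had 1 symbol, 0 several and 9274 none. The set with the highest mean was kept for the 55 genes with several.

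Groups were compared with limma 3.58.1 (R 4.3.3, group as the only term, 8 arrays), adjusted over 19505 genes at 0.05, after the script was tested on simulated data. Single values were compared by exact permutation (Python 3.11.15). The labels call the 4 samples of each group biological replicates, but nothing says how these were raised. The exact p-values rest on these samples alone. Those of limma set the group difference against a spread drawn toward that of all genes, which exceeds the own spread of the bright caseins. Depth has no counterpart on arrays, and their number limits the precision. Samples of equal replicate number were treated as unpaired, since the labels state no pairing. Their deviations correlated at -0.0606 to 0.0395, within the -0.0838 to 0.136 of other a3a6KO and control pairs. A shared litter or day is not excluded by this. The members and lists were chosen with earlier results of these data known. The text names the 5 caseins, the deleted genes, all regulators, the 4 genes of smallest p and fixed examples of the other lists, the nearest genes in pattern and level, the chromosomal neighbours and keratin markers. Fabp3, Lcn2, Trf, Fam20a, Cel, Irgm1, Ndufa1, Uqcrq, Muc1, Krt17, Oxtr and Cdh3 were added after their values were seen. Alternatives were a replicate block, other variance priors, array weights, centring, a filter on dim genes, all named sets, a keratin covariate and leaving out samples. No genome build is named for the probe sets, so no coordinates but those of the RefSeq promoters are given.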

Additional observations from a re-analysis of the deposited data

Results flagged for a closer look

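In 40 groups of 4 values examined, those of the casein genes, their ratios, Itga3, Itga6, Krt8, Krt14 and Krt5, 5 had 1 sample far from the other 3. Chance gives about 1 in 20 for independent groups. These groups share samples and casein genes, so the count cannot be set against that rate. Csn1s1 was 11.63 in a3a6KO 1, against 11.81 to 11.82 in the other a3a6KO samples. Csn1s1 was 11.86 in control 3, against 12.05 to 12.08 in the other controls. Csn2 was 12.24 in a3a6KO 1, against 12.44 to 12.47 in the rest of its group. The log2 ratio of Csn3 to Csn1s1 was -0.39 in a3a6KO 4 and -0.55 to -0.53 in the other a3a6KO samples, and that of Csn3 to Csn2 was -1.04 in a3a6KO 4 and -1.17 to -1.16 in the others. Without a3a6KO 1 and control 3 together, a choice made after seeing the data, the median casein difference was -0.25.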

How the results depend on the processing

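In every alternative, each adjusted limma p of the 5 casein genes stayed above the threshold (0.786 or higher), and Csn1s1, Csn2, Csn1s2a and Csn3 kept lower means in a3a6KO. Csn1s2b alone turned sign, at 0.0213 once a score of Krt5, Krt14 and Krt17 entered as covariate (basal keratin score). The median casein difference of that fit was -0.0865, the value of Csn2, while Csn3 differed by -0.29, Csn1s1 by -0.253 and Csn1s2a by -0.0649. That fit also gave the single call over all genes, Irgm1 (-2.81, limma adjusted p = 0.0481), so 1 gene passed instead of 0. With the arrays centred on Krt8, Krt18, Krt19 and Epcam, the median casein difference was -0.339, against a shift of the median of all genes to -0.111, and all 10 casein pairs passed as correlated rather than 6. Such centring takes the same value from every gene of an array. It thus moves all differences by the same amount and gives both genes of a pair a shared term, which can itself raise r. The causes of the other changes were not tested. Leaving out samples 1 at a time gave a median casein difference of -0.297 to -0.118, with the weakest value, that of Csn1s2b itself, without control 2. It gave 6 correlated pairs each time and 0 pairs with unequal differences, although 3 against 4 samples allow no exact p under 0.0571. The fit with the replicate number as a block changed no call: Csn3 had an adjusted p of 0.942 there with the same difference, and 0 genes passed (1003 at an unadjusted p under 0.05). Csn1s2b was left out by the filter on dim genes, so it has no value there. Each casein gene had 1 probe set, so the use of all sets altered no difference. The signal of Csn1s2b under background limits what its difference can show. Whether the top of the range limits the brightest caseins was not tested.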

Other observations

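Beyond the casein genes, the score of the 4 bright members was set against 29 measured genes of the regulator, feedback and secreted protein lists over the 8 samples, a family chosen after the data were seen. The closest were Wfdc18 (Pearson's r = 0.885, Spearman's rho 0.707) and Cel (r = 0.852, rho 0.905), and neither passed adjustment over the 29 relations (adjusted exact permutation p = 0.131 for both r, and 0.343 and 0.132 for rho). Without the 2 samples farthest from the median, a3a6KO 1 and control 2, r was 0.825 for Wfdc18 and 0.898 for Cel. Cel exceeded background on only 1 of the 8 arrays. Pigr had r = 0.764 and rho 0.81 (adjusted exact permutation p of 0.248 and 0.21). Ybx1, which encodes a nucleic acid binding protein, had r = 0.735 and rho 0.857 (adjusted exact permutation p of 0.248 and 0.155) while under background on every array. Elf5 had r = 0.654 and rho 0.571 (adjusted exact permutation p of 0.261 and 0.438), and r was 0.0607 without the 2 samples, so that relation rests on them. Wap and Lalba, milk genes that alveolar cells express with the caseins, had r = 0.609 and 0.599 and rho of 0.467 and 0.452 (adjusted exact permutation p of 0.261 for both r and 0.646 for both rho), and on deviations from the group means r was 0.226 and 0.2. Stat5a had r = 0.225 and rho 0.262, and Jak2 r = -0.493 and rho -0.405 (adjusted exact permutation p of 0.894 and 0.479 for r, and 0.804 and 0.696 for rho).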
